A study of Drosophila melanogaster with 12 samples.

Results

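Ago3 piRNAs of aubRK ovaries were compared with Ago3 piRNAs of y w ovaries, which make up 2 of the 12 small RNA libraries of a study on the N-terminal arginines of Aub in *Drosophila melanogaster*. Both libraries were chosen by their labels, and reads were counted on 126 of the 126 transposon consensus sequences of the files, in sense and antisense orientation. The aubRK flies were aub[QC42/HN2], a heteroallelic combination without functional endogenous Aub, and carried nos-Gal4 with UAS-3xHA:aub[RK], so that a tagged Aub whose N-terminal arginines are replaced by lysines was made in the germline alone. The y w flies were y[1] w[1] with untagged endogenous Aub, and they carried neither the driver nor the transgene. Both lines were yeast-fed flies of 2 to 5 d whose ovaries were pooled, and both immunoprecipitations used the same antibody against Ago3. Both libraries were also made with the same 3′ adaptor, without a random barcode. The substitution in Aub, the tag, the driver, the transgene, and the genetic background changed together between the lines and cannot be told apart. Each line had 1 library, so no difference has a replicate check and no p-value was computed, and "higher" and "lower" describe these libraries.

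piRNAs guide PIWI proteins to transposon transcripts in the germline. In the ping-pong cycle of the fly ovary, Aub loaded with antisense piRNAs cleaves transposon transcripts in the nuage around the nurse cell nuclei, and the cleaved sense fragments are passed to Ago3, which therefore mainly holds sense piRNAs. Ago3 in turn cleaves antisense precursors that feed Aub. The Tudor domain protein Krimper brings Aub and Ago3 together, and proteins of this family bind PIWI proteins through dimethylated arginines near their N-terminus. Ago3 and Aub are made in germ cells, whereas the follicle cells of the soma use Piwi alone, loaded with antisense piRNAs of gypsy-type elements from the flamenco locus. The orientation of Ago3 piRNAs, transposon by transposon, is thus the readout compared here. The consensus sequences were not used here, so counts were not divided by length, and levels are compared only between libraries for the same transposon.

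The aubRK library held 17211640 read copies on transposons and the y w library 35451651. In CPM, the usual scaling of counts to the library total, 1 read copy corresponds to 0.0581 in aubRK and 0.0282 in y w. A floor of 3 read copies, a value set by choice, corresponds to 0.174 and 0.0846 CPM. Sense read copies were 31.1% in aubRK (Wilson 95% interval 31.07 to 31.11) and 48.1% in y w (48.07 to 48.10), a difference of −16.99 percentage points. All intervals describe counting error alone, because each line had 1 library. They treat every read copy as independent. Duplicates made by PCR could not be recognised in either library, so the intervals can be too narrow even for counting error. Scaled to the library total, sense reads were 0.647 times and antisense reads 1.33 times as abundant in aubRK as in y w. Because both orientations are scaled to 1 total, a lower share of one orientation goes with a higher share of the other. With identical reads counted once, the sense shares were 34.5% in aubRK and 44.4% in y w. The other libraries of Ago3 from ovaries with wild-type Aub were 56.2% sense in aubWT, made with a barcode, and 41.9% sense in w1118, made with another antibody, adaptor, and protocol. Per the study's methods, PCR duplicates were discarded from barcoded libraries. The aubWT library accordingly held 1 read copy per entry of the files, against 6.15 in aubRK. Comparisons with aubWT therefore set counts without duplicates against counts that include them.

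The shift was spread over most transposons but not over all of them. Of the 125 transposons that reached 50 read copies in each library, 98 (78.4%) had a lower sense share in aubRK and 27 (21.6%) a higher one, with a median difference of −12.2 points. The differences were beyond counting error for 94 of the lower and 20 of the higher. A sense share over 10 points lower was seen in 69 (55.2%) and one over 10 points higher in 9 (7.2%). Between 2 Piwi libraries of aubRK ovaries, the only pair of 1 condition in the study, 17 of 118 transposons differed by over 10 points in either direction. This pair differs in adaptor, in depth (47217032 and 1338017 read copies), and in read copies per entry (5.57 and 1). Its spread need not match that between the Ago3 libraries of aubRK and y w. Sense piRNAs exceeded antisense piRNAs for 29 transposons in Ago3 aubRK and for 59 in Ago3 y w. Penelope, with 4 and 15 read copies, was the only transposon below the minimum of 50. The transposons nearest above it were BS4, with 86 read copies in aubRK and 154 in y w, and Helitron, with 97 and 68.

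**Figure D1:**
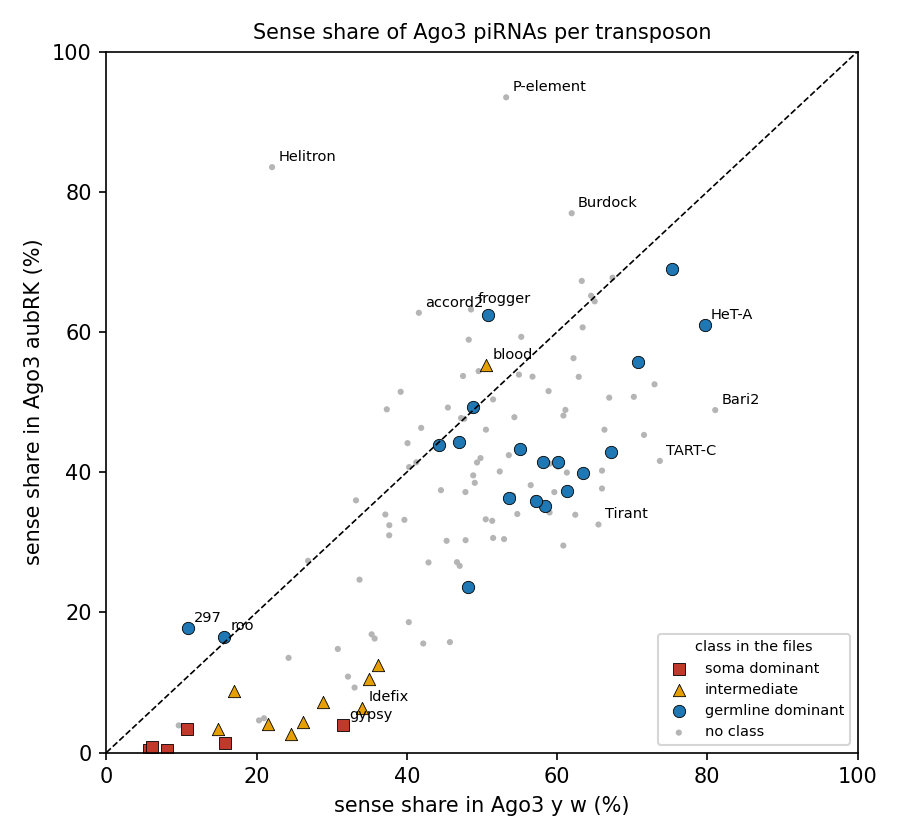
Sense share (% of read copies) of the 125 transposons that reached 50 read copies in each library, in Ago3 aubRK (vertical) against Ago3 y w (horizontal), with 1 point per transposon coloured by the class given in the files and the dashed line at equal shares. A total of 98 points lie below the line, the soma-dominant and most intermediate transposons close to the floor, while roo, 297, blood, Burdock, and accord2 lie on or above it.

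The orders of transposons, assigned from general knowledge of each element, differed in how uniformly they shifted. Non-LTR retrotransposons, which copy themselves by target-primed reverse transcription, had a lower sense share in aubRK for 39 of 40 (78.4% over all), with a median of −19.4 points against −12.2 over all 125. Pooled, their Ago3 piRNAs were 39.9% sense in aubRK and 61.1% in y w. LTR retrotransposons, which form cDNA in virus-like particles, had a lower share for 45 of 61 and a higher one for 16, near the 78.4% and 21.6% over all, with a median of −8.17 points and pooled shares of 24.8% in aubRK and 36.8% in y w. DNA transposons, which move by excision, had a lower share for 12 of 20 and a higher one for 8 (78.4% and 21.6% over all), with a median of −2.93 points and pooled shares of 48.0% in aubRK and 52.1% in y w. The single non-LTR element with a higher sense share was G5A, at 67.3% in aubRK and 63.3% in y w, which was named after its values were seen. These counts describe the transposons of 1 pair of libraries, and transposons are not replicates.

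Splitting the abundance by orientation showed which side of each share had moved. Changes are given as log2 of (CPM + 1) in aubRK over that in y w, for the 123 transposons per orientation with a mean of at least 50 read copies in that orientation. Sense piRNAs were over 2-fold lower in aubRK for 63 (51.2%) and over 2-fold higher for 7 (5.69%), with a median of −1.03. Antisense piRNAs were over 2-fold lower for 16 (13%) and over 2-fold higher for 19 (15.4%), with a median of 0.18. Scaling by TMM or by DESeq2 size factors in place of the library total added up to 0.16 or 0.18 to a value, less at low counts, so that transposons within that distance of 0 can change direction, and 11 rather than 7 were then over 2-fold higher in sense. The split of antisense calls into higher and lower, 19 and 16, became 21 and 10 under TMM scaling. Of the 122 transposons compared in both orientations, 49 were lower in both, 42 were lower in sense and higher in antisense, 27 were higher in both, and 4 were higher in sense and lower in antisense. The change in sense lay below the change in antisense for 97 of the 122. Between the 2 Piwi libraries of aubRK, which differ in adaptor, depth, and read copies per entry, 14 of 123 transposons in sense and 8 of 123 in antisense differed by over 2-fold.

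**Figure D2:**
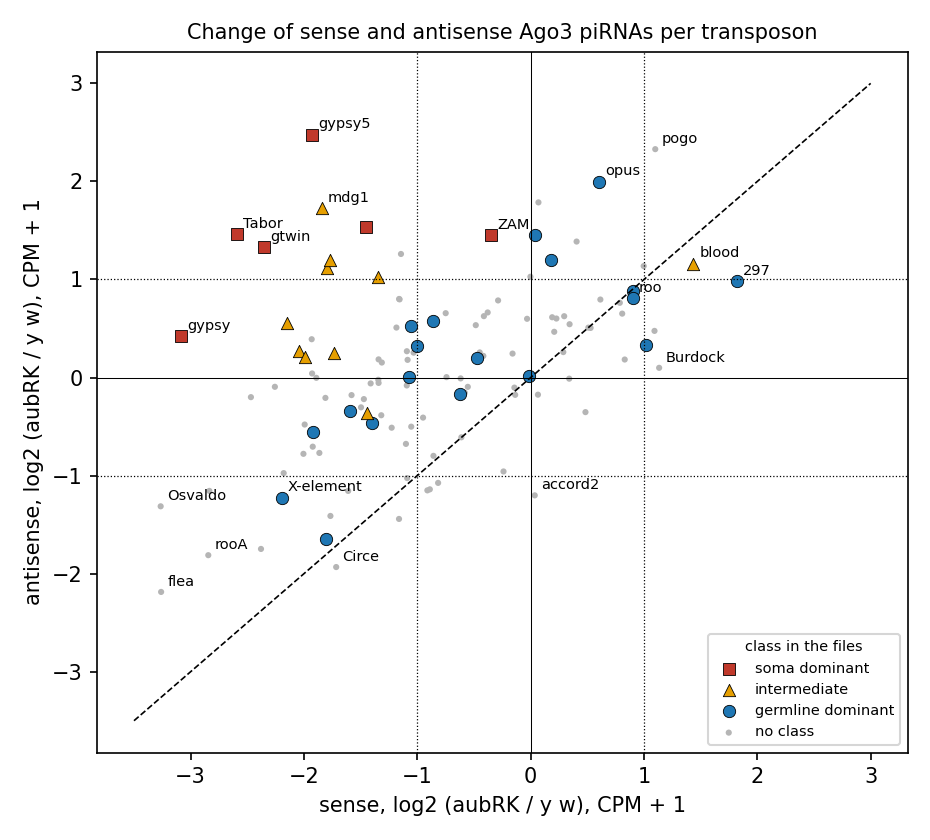
Change of antisense (vertical) against sense (horizontal) Ago3 piRNAs, each as log2 of (CPM + 1) in aubRK over y w, with 1 point per transposon for the 122 compared in both orientations, dotted lines at 2-fold, and the dashed line at equal change. A total of 97 points lie above the dashed line, and the upper left corner, over 2-fold lower in sense and over 2-fold higher in antisense, holds 9 transposons, 8 of them of the soma-dominant and intermediate classes.

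The classes in the files sort 35 transposons by the cells in which their piRNAs dominate. Against y w, the 6 of the soma-dominant class had the largest median change in abundance of the 3 classes in both orientations. All of them are LTR elements of the Ty3/gypsy superfamily, among them gypsy and ZAM, which are silenced in follicle cells by flamenco. This class took 4.77% of the read copies of Ago3 aubRK and 2.11% of Ago3 y w, and its piRNAs were 1.31% sense in aubRK (1.28 to 1.33) and 15.3% in y w (15.2 to 15.3). Its sense piRNAs totalled 622 CPM in aubRK and 3219 CPM in y w, and its antisense piRNAs 47058 CPM in aubRK and 17866 CPM in y w. Sense piRNAs were over 2-fold lower for 5 of 6 (51.2% over all transposons), with a median of −2.14 against −1.03 over all. Antisense piRNAs were over 2-fold higher for 5 of 6 (15.4% over all), with a median of 1.46 against 0.18. The sense direction depended on the reference. Against aubWT the sense log2 change was 1.98 in gypsy, 0.94 in gypsy10, 0.79 in gypsy5, 0.49 in gtwin, 0.044 in ZAM, and −0.36 in Tabor. The median difference in sense share from y w, −7.55 points, was smaller than in the germline-dominant (−16.7) and intermediate (−21.7) classes. The same class took 5.95 and 6.15% of the 2 Piwi libraries of aubRK ovaries, with 0.969 and 1.10% sense, and 0.603% of Aub aubRK, and the part of Piwi-bound piRNAs in the Ago3 libraries was not tested. In bulk ovaries, fewer cells of a type and less RNA per cell cannot be told apart. The share of this class varied among the other Ago3 libraries, at 0.483% in aubWT, 0.259% in w1118, and 0.698% in csulRM50, so that Ago3 y w itself stood above them, and the part of that difference in the result was not tested.

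In the comparison with y w, the change in gypsy (FBgn0001167), an errantivirus with an envelope gene, was mainly in sense piRNAs. Against the other wild-type libraries the larger log2 change of gypsy was in antisense. It was 1.98 in sense and 3.57 in antisense against aubWT, and −0.87 and 3.45 against w1118. Ago3 bound 218 CPM of sense gypsy piRNAs in aubRK and 1863 CPM in y w, an 8.55-fold lower level. The antisense level was 5411 CPM in aubRK and 4037 CPM in y w, and the sense share was therefore 3.87% in aubRK and 31.6% in y w, a difference of −27.7 points. In gypsy5 (FBgn0063432) the larger movement was in antisense. Its antisense piRNAs were at 7155 CPM in aubRK and 1284 CPM in y w, 5.57-fold higher (counting interval 5.51 to 5.63) and the largest log2 change in antisense of the 123 transposons, at 2.48. Its sense piRNAs rested on 496 read copies in aubRK and 3997 in y w, or 28.8 and 113 CPM, and the sense share was 0.401% in aubRK and 8.07% in y w.

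The other members of the class lay between these patterns. Tabor (FBgn0045970) had the lowest sense share of all transposons compared, 0.350% of 183763 read copies in aubRK against 5.64% of 144710 in y w. Its sense piRNAs were 6.15-fold lower and its antisense piRNAs 2.76-fold higher in aubRK. For gtwin (FBgn0063436) the sense share was 1.43% in aubRK and 15.8% in y w, with sense 5.13-fold lower and antisense 2.52-fold higher. For gypsy10 (FBgn0067387) it was 0.804% in aubRK and 6.10% in y w, with sense 2.75-fold lower and antisense 2.91-fold higher. ZAM (FBgn0023131) was the exception in sense, at 125 CPM in aubRK and 160 CPM in y w, a difference of less than 2-fold, while its antisense piRNAs were 2.73-fold higher. The sense share of ZAM was 3.33% in aubRK and 10.8% in y w. All 6 sense shares in aubRK were at or below 3.87%, below the lowest sense share of this class in y w, 5.64%.

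The 10 intermediate transposons moved the same way with a single exception in each orientation, blood in sense and Stalker4 in antisense. The class took 16.0% of the read copies of Ago3 aubRK and 11.6% of Ago3 y w, and was 15.9% sense in aubRK and 27.7% in y w. Sense piRNAs were over 2-fold lower for 9 of 10 (51.2% over all), with a median of −1.78, and antisense piRNAs were over 2-fold higher for 5 of 10 (15.4% over all), with a median of 0.79. The sense share was lower for 9 of 10 (78.4% over all), with a median of −21.7 points. The largest difference was in Idefix (FBgn0026065), a retrovirus-like element also controlled by flamenco, at 6.40% sense in aubRK and 34.0% in y w. Its sense piRNAs were at 459 CPM in aubRK and 1593 CPM in y w, and its antisense piRNAs at 6710 CPM in aubRK and 3086 CPM in y w.

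The LTR element mdg1 (FBgn0002697) was 2.66% sense of 406104 read copies in aubRK and 24.5% of 325707 in y w. Its antisense piRNAs were at 22968 CPM in aubRK and 6934 CPM in y w, 3.31-fold higher, and its sense piRNAs were 3.59-fold lower. The LTR element 412 (FBgn0000006) was 7.27% sense in aubRK and 28.9% in y w, with antisense piRNAs at 28090 CPM in aubRK and 13783 CPM in y w. Quasimodo, gypsy2, gypsy3, and gypsy4 differed in sense share by −23.6, −17.5, −21.9, and −24.5 points. In Stalker2 and Stalker4 the difference was −11.5 and −8.17 points, and for Stalker4 (FBgn0063897) antisense piRNAs were lower as well, at 13735 CPM in aubRK and 17674 CPM in y w. Among these 10, blood (FBgn0000199) went the other way. It had 17508 CPM of sense piRNAs in aubRK and 6476 CPM in y w, and 14153 CPM of antisense piRNAs in aubRK and 6329 CPM in y w, so that both orientations were over 2-fold higher. The sense share of blood was 55.3% in aubRK and 50.6% in y w, a difference of 4.72 points (4.53 to 4.92).

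**Figure D3:**
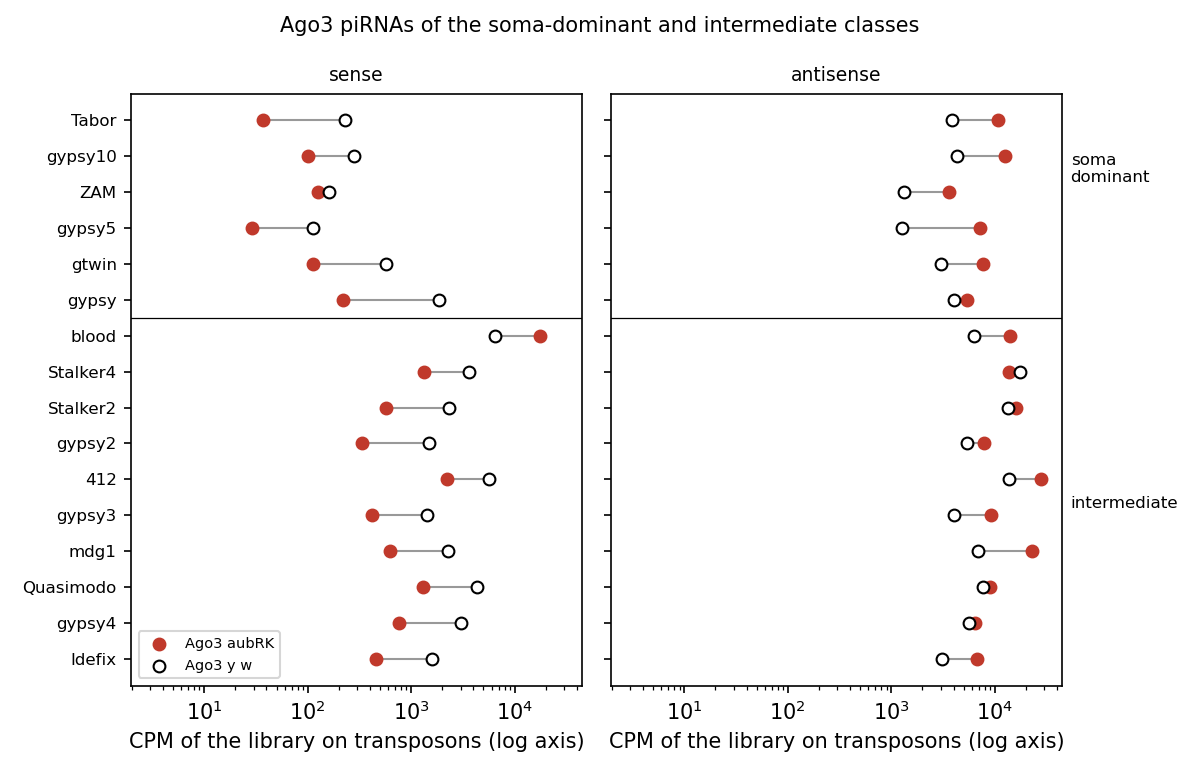
CPM (log axis) of sense (left) and antisense (right) Ago3 piRNAs of the 6 soma-dominant and 10 intermediate transposons, with filled points for aubRK and open points for y w, 1 library each. In sense the filled point lies left of the open one for every transposon except blood, and in antisense it lies right of it for every transposon except Stalker4.

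The combination of sense over 2-fold lower and antisense over 2-fold higher occurred in 9 of 122 transposons, all of them LTR elements. It was seen in 4 of 6 soma-dominant members (gypsy5, gypsy10, gtwin, and Tabor) and 4 of 10 intermediate members (412, mdg1, gypsy3, and Idefix). Among the germline-dominant transposons it was seen in 0 of 19, which is near the 9 of 122 over all. The remaining one was HMS-Beagle2, which has no class and was named after its values were seen, at 4.59% sense in aubRK and 20.3% in y w. The reverse combination occurred in 0 of 122. By entries the combination was left in 4 transposons, Tabor, gypsy5, gypsy10, and mdg1. It occurred in 0 of 123 against aubWT and in 9 of 122 against w1118.

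The 19 germline-dominant transposons, whose transcripts are targets of Aub and Ago3 in nurse cells, took 41.9% of the read copies of Ago3 aubRK and 37.5% of Ago3 y w. They were 35.2% sense in aubRK and 52.1% in y w, and the sense share was lower for 15 of 19, near the 78.4% over all, with a median of −16.7 points. Sense piRNAs were over 2-fold lower for 8 of 19 (51.2% over all) and over 2-fold higher for 2 (5.69%), and antisense piRNAs over 2-fold lower for 2 (13%) and over 2-fold higher for 3 (15.4%). Their median changes, −0.62 in sense and 0.32 in antisense, lay closer to each other than those of the soma-dominant class. The F-element (FBgn0000652), a jockey-clade retrotransposon, was 36.3% sense in aubRK and 53.6% in y w. Its sense piRNAs were at 20281 CPM in aubRK and 17913 CPM in y w, a 1.13-fold difference, and its antisense piRNAs at 35537 CPM in aubRK and 15486 CPM in y w, so that the lower share came with more antisense piRNAs. Rt1b (FBgn0042682), another non-LTR element, had a similar shift in share, to 35.2% in aubRK against 58.4% in y w, with both orientations lower. Its sense piRNAs were at 7794 CPM in aubRK and 29592 CPM in y w, and its antisense piRNAs at 14363 CPM in aubRK and 21037 CPM in y w.

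Max-element (FBgn0063919), an LTR element of the BEL/Pao group, was 43.3% sense in aubRK and 55.0% in y w, with sense piRNAs at 20150 CPM in aubRK and 27976 CPM in y w. GATE (FBgn0015945), an LTR element without a class, changed less, at 46.1% sense in aubRK and 50.5% in y w. Roo (FBgn0000155), a further BEL/Pao element, had the most read copies of all transposons in aubRK, and its sense share was 16.5% in aubRK and 15.7% in y w, a difference of 0.85 points. Its sense piRNAs were at 14490 CPM in aubRK and 7760 CPM in y w, and its antisense piRNAs at 73197 CPM in aubRK and 41744 CPM in y w. The opposite direction in abundance was seen in its relative rooA (FBgn0063394), whose antisense piRNAs were at 2267 CPM in aubRK and 7962 CPM in y w and whose sense piRNAs were 7.20-fold lower. A read with equally good matches to both elements can be counted on each. The antisense piRNAs of the gypsy-group element opus (FBgn0003007) were at 17817 CPM in aubRK and 4461 CPM in y w, 3.99-fold higher, and its sense share was 39.8% in aubRK and 63.5% in y w.

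The telomeric elements, non-LTR retrotransposons that maintain fly chromosome ends, carried a high sense share in y w and a lower one in aubRK throughout. Pooled, HeT-A, TAHRE, TART-A, TART-B, and TART-C were 52.1% sense in aubRK and 73.6% in y w. HeT-A (FBgn0004141), the most frequent telomere unit, was 61.0% sense in aubRK and 79.7% in y w, with sense piRNAs at 16785 CPM in aubRK and 33648 CPM in y w and antisense piRNAs at 10725 CPM in aubRK and 8585 CPM in y w. TAHRE (FBgn0069343) was 55.7% sense in aubRK and 70.8% in y w. The largest differences of the 5 were in TART-C, 41.6% in aubRK and 73.7% in y w, and in TART-A, 33.9% in aubRK and 62.4% in y w. TART-B was 35.9% sense in aubRK and 57.2% in y w. Sense piRNAs were over 2-fold lower for 5 of 5 (51.2% over all), while no antisense change exceeded 2-fold. HeT-A was just past 2-fold, and 4 of 5 were left under TMM or DESeq2 scaling and 3 of 5, without HeT-A and TART-A, by entries. Against aubWT in place of y w, the log2 change in sense was positive for TART-A, TART-B, and TART-C, at 1.07, 1.11, and 1.03. The TART consensus sequences share the identifier FBgn0004904 and can share reads.

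R1A1-element (FBgn0003908), R1-2 (FBgn0067405), and R2-element (FBgn0003909) insert into ribosomal RNA genes. R1A1-element took 5.69% of the read copies in aubRK and 8.20% in y w, with sense piRNAs at 19473 CPM in aubRK and 48397 CPM in y w. Its antisense piRNAs differed little, at 37388 CPM in aubRK and 33628 CPM in y w, and the sense share was 34.2% in aubRK and 59.0% in y w. R2-element was 14.8% sense in aubRK and 30.8% in y w. R1-2, on 2357 read copies in aubRK and 5157 in y w, was 42.4% sense in aubRK (40.4 to 44.4) and 53.6% in y w (52.2 to 54.9).

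Where both libraries held 1000 read copies or more, the largest negative differences in sense share were those of Tirant, TART-C, and accord. Tirant (FBgn0004082), a gypsy-group element, was 32.5% sense in aubRK (31.2 to 33.9) and 65.5% in y w (64.6 to 66.4). Both of its orientations moved, with sense piRNAs at 83.5 CPM in aubRK and 188 CPM in y w and antisense piRNAs at 173 CPM in aubRK and 98.9 CPM in y w. Accord (FBgn0063447) was 29.5% sense in aubRK and 60.8% in y w, with an antisense level of 1212 CPM in aubRK and 1215 CPM in y w, so that the sense side alone had moved. On fewer reads, Bari2 (FBgn0064134), a Tc1/mariner DNA transposon, belonged to the same group, at 48.9% sense of 305 read copies in aubRK and 81.1% of 359 in y w.

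A higher sense share in aubRK was seen for 16 of 61 LTR, 8 of 20 DNA, and 1 of 40 non-LTR elements, and for 2 of 4 of other orders (FB and Helitron), against 21.6% over all. Burdock (FBgn0010302), an LTR element, was 76.9% sense in aubRK and 61.9% in y w, with sense piRNAs at 5510 CPM in aubRK and 2511 CPM in y w and antisense piRNAs at 1652 CPM in aubRK and 1542 CPM in y w. The LTR element accord2 (FBgn0063782) was 62.7% sense in aubRK and 41.6% in y w, and there the antisense side differed, at 312 CPM in aubRK and 719 CPM in y w. Frogger (FBgn0061513), on 1087 read copies in aubRK and 2064 in y w, was 63.2% sense in aubRK (60.3 to 66.0) and 48.5% in y w (46.4 to 50.7). In the gypsy-group element 297 (FBgn0000005), sense piRNAs were at 6676 CPM in aubRK and 1892 CPM in y w, 3.53-fold higher, and antisense piRNAs at 30847 CPM in aubRK and 15575 CPM in y w, and its sense share was 17.8% in aubRK and 10.8% in y w. Both directions turned against aubWT, where the sense log2 change of 297 was −1.49 and its difference in share −36.3 points, and blood differed there by −4.27 points. The DNA transposon pogo (FBgn0003122) also had more of both, with antisense piRNAs at 1001 CPM in aubRK and 198 CPM in y w and sense piRNAs at 373 CPM in aubRK and 174 CPM in y w, although its sense share was lower, at 27.2% in aubRK and 46.7% in y w. Pogo and blood were the 2 transposons over 2-fold higher in both orientations, a number that was 5 under TMM scaling and 0 by entries. The number was 20 of 123 against aubWT, with blood but without pogo, and 11 of 122 against w1118, with neither.

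Both orientations were over 2-fold lower in aubRK for 12 of 122 transposons, namely 9 of 61 LTR and 3 of 39 non-LTR elements, and for 2 of the 19 germline-dominant ones. Against aubWT this was so for 0 of 123 transposons, and against w1118 for 20 of 122, with partly other members. In the LTR element flea (FBgn0014947), sense piRNAs were at 337 CPM in aubRK and 3243 CPM in y w, 9.61-fold lower, and antisense piRNAs at 776 CPM in aubRK and 3538 CPM in y w. Osvaldo (FBgn0063755) had 32.4 CPM of sense piRNAs in aubRK and 320 CPM in y w, 9.88-fold lower, and 15.6% sense in aubRK against 42.2% in y w. Circe (FBgn0022937) had 2384 CPM in aubRK and 7834 CPM in y w in sense and 2460 CPM in aubRK and 9396 CPM in y w in antisense, with shares of 49.2% in aubRK and 45.5% in y w. Against aubWT, flea and Osvaldo were higher in aubRK in both orientations, at log2 changes of 0.32 in sense and 1.61 in antisense for flea and 0.59 and 1.27 for Osvaldo. Transposon copies differ between fly strains, and genomic copy numbers of both lines were not analysed here.

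The elements of hybrid dysgenesis, which are mobilised in crosses when the mother lacks the matching piRNAs, gave 3 different results. The I-element (FBgn0001249), which causes I-R dysgenesis, was 42.9% sense in aubRK and 67.2% in y w, with sense piRNAs at 1478 CPM in aubRK and 2695 CPM in y w. Hobo (FBgn0001210) did not differ beyond counting error, at 47.7% sense in aubRK and 47.2% in y w, a difference of 0.49 points (−0.13 to 1.12). P-element (FBgn0003055) rested on 306 read copies in aubRK and 62 in y w, of which 286 and 33 were sense, so that the sense share was 93.5% in aubRK (90.1 to 95.7) and 53.2% in y w (41.0 to 65.1). Per the study's methods, the aubRK line received its aub transgene, which y w flies lack, in a P-element vector, so that reads of the vector and of genomic P-element copies cannot be told apart. Helitron (FBgn0067418), a rolling-circle element, had 81 sense and 16 antisense read copies in aubRK and 15 and 53 in y w, and on these few reads its sense share was 83.5% in aubRK (74.9 to 89.6) and 22.1% in y w (13.8 to 33.3).

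The follicle-cell list, gypsy, ZAM, Idefix, Tirant, gypsy5, and gypsy10, overlaps the classes above in all members but Tirant. Its piRNAs were 2.77% sense in aubRK and 22.9% in y w, with 3.66% of the read copies in aubRK and 1.83% in y w. Antisense piRNAs were higher in aubRK for 6 of 6 (56.9% over all), and over 2-fold higher for 4, and sense piRNAs were lower for 6 of 6 (74% over all). The members were chosen with these values known.

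The number of read copies per distinct sequence, given in the files by a second count in which identical reads are entered once, differed between orientations as well. In Ago3 aubRK, sense piRNAs had 5.54 read copies per entry and antisense piRNAs 6.47, whereas in Ago3 y w sense piRNAs had 8.23 and antisense piRNAs 7.09. The number of copies per entry grows with sequencing depth and PCR, so the ratio of sense over antisense within a library was compared. Within a library it also grows with the reads of each orientation. A lower ratio is therefore tied to the lower sense share given above and was not separated from it. This ratio was lower in aubRK for 98 of 122 transposons (80.3%), with a median of 0.93 in aubRK and 1.09 in y w. It was above 1 for 31 transposons in aubRK and 79 in y w. In HeT-A, sense piRNAs had 6.33 copies per entry in aubRK and 12.6 in y w, and antisense piRNAs 6.0 in aubRK and 6.93 in y w. In R1A1-element the sense values were 6.09 in aubRK and 12.1 in y w, and the antisense values 6.67 in aubRK and 8.33 in y w. For roo, which kept its sense share, the ratio was 0.70 in aubRK and 0.67 in y w. In the soma-dominant class the ratio was lower in aubRK for 6 of 6 and in the intermediate class for 10 of 10, against 37 of 39 non-LTR elements, 46 of 61 LTR elements, and 13 of 19 DNA transposons. In Ago3 w1118, a library with wild-type Aub made by the other protocol, sense piRNAs had 7.01 and antisense piRNAs 7.65 copies per entry over all transposons, so a higher value in sense was not common to all wild-type libraries.

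**Figure D4:**
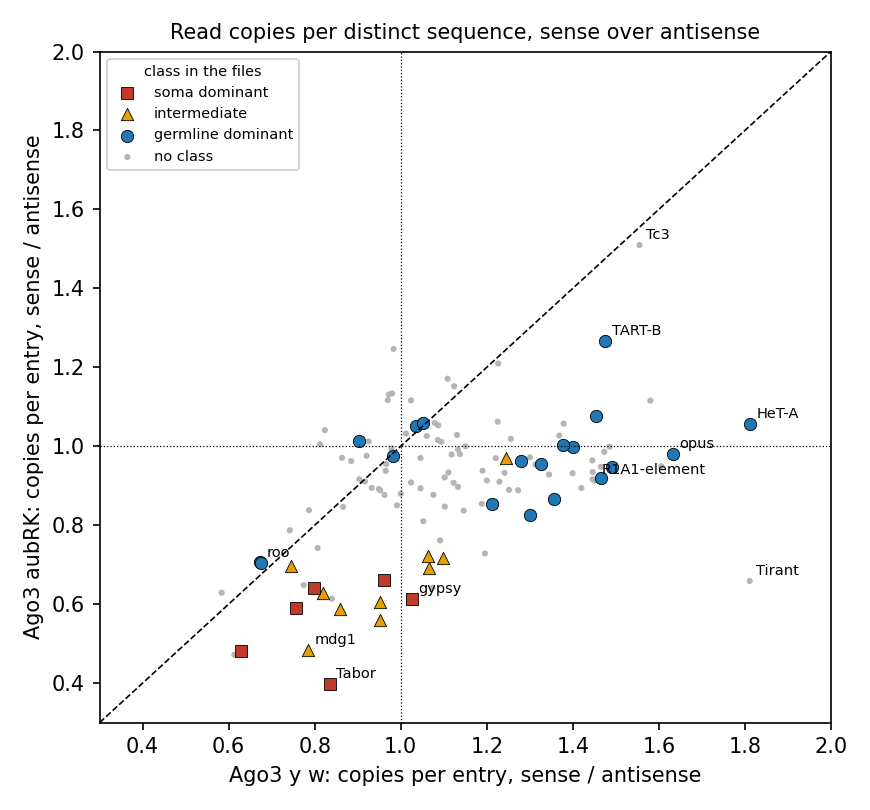
Read copies per entry, in which identical reads count once, as the ratio of sense over antisense, in Ago3 aubRK (vertical) against Ago3 y w (horizontal), with 1 point per transposon for the 122 compared in both orientations, the dashed line at equality, and dotted lines at 1. The ratio is lower in aubRK for 98 transposons, with HeT-A and Tirant farthest to the right below the line.

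To see which differences exceeded the variation among libraries with wild-type Aub, each value of Ago3 aubRK was placed against the range of Ago3 y w, aubWT, and w1118. The aubWT library differs in adaptor and in the removal of duplicates, and w1118 in antibody, adaptor, and protocol. This range therefore holds technical as well as strain differences. For the 121 transposons that reached 50 read copies in all 4 libraries, the sense share of aubRK was below all 3 for 62 (51.2%), within their range for 52, and above all 3 for 7 (5.79%). It was below all 3 for 6 of 6 soma-dominant, 9 of 10 intermediate, and 7 of 19 germline-dominant transposons. The 5 telomeric elements were all below. Tabor was 0.350% sense in aubRK, against 5.64% in y w, 4.42% in aubWT, and 42.9% in w1118, and mdg1 was 2.66% in aubRK, against 24.5%, 21.5%, and 23.4%. HeT-A was 61.0% sense in aubRK, against 79.7% in y w, 85.1% in aubWT, and 74.3% in w1118. By contrast, F-element at 36.3%, Max-element at 43.3%, opus at 39.8%, and Tirant at 32.5% in aubRK lay above the value of w1118, which was 23.0% for F-element, 17.4% for Max-element, 38.6% for opus, and 32.2% for Tirant.

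In abundance, antisense piRNAs of aubRK were above all 3 libraries for 45 of 123 transposons (36.6%) and below all 3 for 11 (8.94%). They were above for 6 of 6 soma-dominant and 8 of 10 intermediate transposons. Antisense piRNAs of gypsy10 were at 12541 CPM in aubRK, against 4312 CPM in y w, 1026 CPM in aubWT, and 401 CPM in w1118. Sense piRNAs of aubRK were below all 3 for 37 of 123 (30.1%) and above for 15 (12.2%). In sense the soma-dominant class did not stand apart in this way, with 1 of 6 below all 3 and 5 within the range. Sense piRNAs of gypsy, for example, were at 218 CPM in aubRK, against 1863 CPM in y w, 54.3 CPM in aubWT, and 400 CPM in w1118, so that their direction depended on the wild-type library. With aubWT as the reference, sense piRNAs over 2-fold lower numbered 18 rather than 63.

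**Figure D5:**
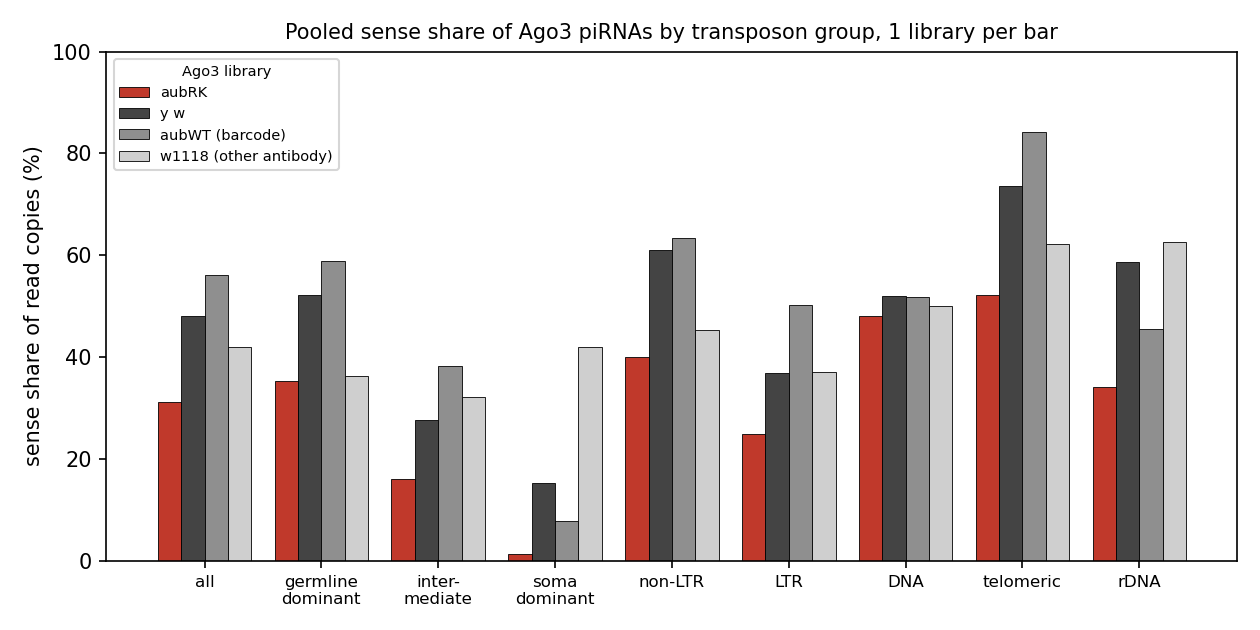
Sense share (% of read copies, pooled over the transposons of each group) of Ago3 piRNAs in aubRK, y w, aubWT, and w1118, 1 library per bar, for all transposons, the 3 classes of the files, 3 orders, the telomeric elements, and those of ribosomal RNA genes. The aubRK bar is the lowest of the 4 in each group shown, by 1.00 points against w1118 in the germline-dominant class and by 6.39 points against aubWT in the soma-dominant class.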

How the data were processed

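Small RNAs bound to Ago3 were sequenced from aubRK and y w ovaries, 1 library each, and labels gave the groups. The authors trimmed adaptors with Cutadapt (2.3 in the submitters' processing notes), aligned reads end to end to FlyBase consensus transposons (v9.42) with STAR (2.4.2a), retained alignments of the best score, and deposited raw counts by transposon and orientation, whole numbers without normalization. Reads matching several transposons equally well can be counted on each. Each file gives read copies, used here, and entries that count identical reads once, as read from the column names and values. PCR duplicates were not removed in either library. In the barcoded aubWT library they were removed by collapsing identical reads.

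Read copies were scaled to CPM of the library total on transposons (17211640 in aubRK, 35451651 in y w). Log2 changes used a pseudocount of 1 CPM and a mean of at least 50 counts per orientation, and sense shares at least 50 counts in both libraries. Shares have Wilson intervals, their differences Newcombe intervals, and folds exact binomial intervals (scipy 1.17.1). With 1 library per group no test was possible. The calculation was checked on simulated counts with known changes in sense and counting error alone, so variation between libraries, PCR, and shared reads were not simulated. Alternatives were TMM (edgeR 4.0.16), DESeq2 1.42.0 size factors (R 4.3.3), pseudocounts, filters, entries, leaving out roo, medians, and aubWT or w1118 as the reference. Transposons named are the 5 with most reads, the 3 largest changes each way per orientation and in sense share (at least 50 and at least 1000 counts), the soma-dominant and intermediate members, the 4 germline-dominant members with most reads, and 4 lists (telomeric, ribosomal, dysgenesis, follicle cell). Members and lists were chosen with earlier results of these data known. The order of each transposon was assigned by hand. The consensus sequences were not used here.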

Additional observations from a re-analysis of the deposited data

How the results depend on the processing

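No paired analysis was possible because each line had 1 library, and for the same reason no replicate could be left out. Low counts limit Helitron, P-element, BS4, and Bari2. Of 125 transposons, 98 had a lower sense share, and the number stayed between 83 and 98 in all alternatives run for it. Of the 89 log2 changes of named transposons, 52 were past 2-fold. The sign of these 52 held under other scaling, pseudocounts, and filters, by entries (50 compared), and without roo, but turned for 19 against aubWT and 6 against w1118. Among all 89, signs of changes near 0 turned for 2 under TMM, 2 under DESeq2 scaling, 3 of 86 by entries, and 1 of 87 without roo, and in all 35 turned against aubWT and 20 against w1118. Differences in sense share turned for 4 of 45 against aubWT and 8 of 43 against w1118. The cause of the changes below was not tested.

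Under TMM and DESeq2 scaling, 11 and 11 transposons were over 2-fold higher in sense (7 in CPM) and 10 and 10 over 2-fold lower in antisense (16), with medians of −0.87 and −0.85 in sense (−1.03) and 0.34 and 0.36 in antisense (0.18). The sense median was −0.98 without a filter, and the medians were −1.09 in sense and 0.13 in antisense from a mean of 1000 counts. By entries, 3 were over 2-fold higher in sense and 9 in antisense (19), the medians were −0.82 in sense and −0.0077 in antisense, and the differences in sense share were −9.88 points over all, −8.29 in germline-dominant, −9.86 in intermediate, and −14.7 in soma-dominant transposons. Library shares then differed by 5.56, 2.60, and 1.82 points in these 3 classes (4.46, 4.40, and 2.66 in read copies). Without roo, the medians were −0.98 in sense and 0.24 in antisense, the sense shares differed by −17.3 points over all and −17.5 in the germline-dominant class, and the library shares by 2.14, 5.33, and 3.01 points. The median over transposons of the difference in sense share was −12.2 over all, −16.7 in germline-dominant, −21.7 in intermediate, and −7.55 in soma-dominant transposons.

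The aubWT counts are without PCR duplicates, unlike those of aubRK. Against aubWT, 21 transposons were over 2-fold higher and 18 over 2-fold lower in sense (63), and 65 higher and 4 lower in antisense, with medians of 0.074 and 1.08. Sense shares differed by −25.1 points over all, −23.6 in germline-dominant, −22.3 in intermediate, and −6.39 in soma-dominant transposons, and library shares by −13.3, 12.5, and 4.29. Past 2-fold in the comparison with y w, the log2 change in sense reversed for 297 (−1.49), Osvaldo (0.59), P-element (−0.78), R2-element (0.54), TART-A (1.07), TART-B (1.11), TART-C (1.03), flea (0.32), gtwin (0.49), gypsy (1.98), gypsy10 (0.94), gypsy2 (0.58), gypsy3 (1.05), gypsy5 (0.79), and pogo (−1.33), in antisense for Osvaldo (1.27), accord2 (0.016), flea (1.61), and rooA (0.37), and the difference in sense share for R1-2 (29.2 points) and, from under 10 points, for 297 (−36.3), roo (−22.8), and blood (−4.27).

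Against w1118, 20 transposons were over 2-fold higher in sense, and 37 higher and 25 lower in antisense, with medians of −0.53 and 0.26. Sense shares differed by −10.8 points over all, −1.0 in germline-dominant, −16.2 in intermediate, and −40.5 in soma-dominant transposons, and library shares by −2.44, 9.19, and 4.51. Past 2-fold in the comparison with y w, the log2 change in sense reversed for Quasimodo (0.091), Stalker2 (0.46), and pogo (−1.53), in antisense for F-element (−0.56), blood (−0.63), and flea (0.20), and the difference in sense share for F-element (13.3), Max-element (25.9), Tirant (0.35), accord2 (−0.46), and opus (1.28 points) and, from under 10 points, for hobo (−30.0), GATE (17.5), and Circe (−1.82). Smaller log2 changes that turned included roo (−1.62), GATE (−1.35), F-element (−1.13), and opus (−0.42) in sense and Stalker4 (2.07) and TART-B (3.86) in antisense against aubWT, and Max-element (0.82) in sense and Tirant (−1.16) and I-element (−0.90) in antisense against w1118.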

Other observations

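The sense shares of Ago3 aubRK were also set against those of the other PIWI proteins from separate samples of aubRK ovaries. Per transposon, Ago3 aubRK differed from the first Piwi aubRK library by a median of 2.13 points in either direction (125 transposons) and from the second by 3.68 points (118). It differed from Aub aubRK by 6.06 points (123) and from Ago3 y w by 14.99 points (125). The 2 Piwi libraries differed from each other by 2.44 points. Within 5 points of the first Piwi library lay 103 of 125 transposons, and within 5 points of Ago3 y w 26 of 125. Ago3 aubRK was above the first Piwi library for 81 and below it for 44. For mdg1 the sense share was 2.66% in Ago3 aubRK, 1.86 and 1.5% in the Piwi libraries, and 5.12% in Aub aubRK, and for blood it was 55.3%, 49.3 and 30.8%, and 87.4%. These libraries do not share the antibody, and the second Piwi library also differs in adaptor, depth, and read copies per entry.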
